A study of Mus musculus with 4 samples.

Results

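The 10 genes described here encode the NF-kB transcription factors and the proteins that restrain them. They are the 5 subunits (Rela, Rel, Relb, Nfkb1 and Nfkb2), the 3 classical inhibitors (Nfkbia, Nfkbib and Nfkbie), and Tnfaip3 and Birc3, which act on the receptor complexes upstream. Members are listed by name for these roles. All 10 of 10 were among the 20197 genes measured, and each was above 0 in all 4 samples.

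RNA was sequenced from 4T1 cells, a single mouse mammary tumor line labelled WT that metastasizes in Balb/c mice. All samples were stained with 20 nM MitoSpy Red, a dye that gathers in mitochondria with a high mitochondrial membrane potential (MMP). The brightest 5% and the dimmest 5% were sorted as high MMP and low MMP cells, with 2 samples in each group, 100000 cells per RNA isolation and 200 ng of RNA per library. The comparison asks how gene expression differs between cells of high and low mitochondrial activity. Neither group is unsorted, so each value sets one tail of the stain against the other.

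In resting cells the NF-kB subunits pair with each other and are held in the cytoplasm by the inhibitors. Signals from TNF, interleukin-1 and Toll-like receptors lead to destruction of the inhibitors, so that the dimers enter the nucleus. There they switch on inflammatory genes and, among the first targets, Nfkbia and Tnfaip3, whose products shut the signal off again. Much of this control acts on protein stability and location, which RNA levels do not show.

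Sequences next to the transcription starts of 8 of the 10 genes were available from RefSeq (build GRCm38.p6). They are shown because several of these genes are themselves NF-kB targets. Each window of 300 bases, 250 before the start and 50 from it on, was searched on both strands for the NF-kB consensus, which reads GGG, a purine, 2 free bases, 2 pyrimidines and CC. At least 1 match stood in the windows of 5 of the 8 genes (Nfkbia, Tnfaip3, Rel, Nfkbie and Nfkb2), and none in those of Nfkbib, Birc3 and Rela. Nfkb1 and Relb had no entry. Over all promoter windows the share with a match was 8.46% (2779 of 32851), and over genes that had a window and reached a mean of 10 normalized reads it was 12.4%. A match is a description of letters in a window, not of bound protein. The stretches below run 5′ to 3′ on the strand of the gene, with matches in capitals. Those of Nfkbia, Tnfaip3, Rel and Rela leave out bases annotated as exon. The first is Nfkbia, whose match begins at position -29 from the start. The second is Tnfaip3, with matches beginning at -125 and -12, and the third is Rel, with overlapping matches beginning at -92. Rela is shown as a member without a match.
Nfkbia, chr12:55492648-55492897, minus strand: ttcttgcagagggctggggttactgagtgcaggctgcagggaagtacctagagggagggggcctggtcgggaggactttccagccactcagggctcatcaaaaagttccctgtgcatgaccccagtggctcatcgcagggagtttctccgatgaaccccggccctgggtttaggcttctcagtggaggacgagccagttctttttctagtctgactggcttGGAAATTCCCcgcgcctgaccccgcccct
Tnfaip3, chr10:19015411-19015547, minus strand: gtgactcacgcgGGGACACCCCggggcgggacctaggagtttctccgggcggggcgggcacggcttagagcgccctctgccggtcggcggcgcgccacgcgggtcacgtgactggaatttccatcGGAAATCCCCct
Rel, chr11:23770971-23771219, minus strand: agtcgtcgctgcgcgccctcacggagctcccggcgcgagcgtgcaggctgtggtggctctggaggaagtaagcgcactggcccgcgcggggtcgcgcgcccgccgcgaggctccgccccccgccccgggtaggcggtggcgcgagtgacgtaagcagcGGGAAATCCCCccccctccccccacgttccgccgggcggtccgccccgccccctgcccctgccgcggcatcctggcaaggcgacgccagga
Rela, chr19:5637291-5637482, plus strand: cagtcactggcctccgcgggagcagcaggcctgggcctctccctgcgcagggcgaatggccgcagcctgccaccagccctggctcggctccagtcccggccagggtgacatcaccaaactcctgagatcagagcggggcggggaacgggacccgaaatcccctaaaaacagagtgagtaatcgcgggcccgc

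For Nfkb2 and Nfkbie the match is given with its flanks, 30 bases in all. Of the Nfkb2 matches the overlapping ones are shown, which begin at -39 from the start of its most upstream window, and the Nfkbie match begins at -106. The Nfkb2 bases shown lie within annotated exon.
Nfkb2, chr19:46304689-46304718, plus strand: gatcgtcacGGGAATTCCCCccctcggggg
Nfkbie, chr17:45555584-45555613, plus strand: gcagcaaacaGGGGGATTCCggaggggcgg

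Libraries held between 22591970 and 26395015 reads assigned to genes, and 18643 to 18854 genes were above 0 in each. Values below are normalized reads, counted per 20000000 reads of a library. Differences are high minus low MMP of log2(value + 1), a scale that understates changes of low genes. The members rested on 538 to 8740 reads per gene and library, and counting error sets a floor under the spread of each. The labels do not say that same-group samples came from separate cultures, while the study counts independent experiments or tumors. If they did not, p-values measure only the spread between these samples. Of 10 epithelial markers 9 were measured, and Krt5 was not in the table. They summed to 73538 and 55258 normalized reads in high MMP samples 1 and 2 and to 61288 and 69778 in low MMP samples 1 and 2, so that high MMP 1 and low MMP 2 were highest. Krt8, Krt18 and Krt7 had the highest means in this sum (16783, 16554 and 13785). Cdh1 was lower in both high MMP samples (3903 and 4726 against 5421 and 5426). Krt14 (1368 and 1529 against 1226 and 1100) and Cldn4 (5810 and 5752 against 4590 and 5182) were higher in both. Leukocyte markers were at or near 0 for the pan-leukocyte gene Ptprc (0 to 1.77), with Cd74 at 193 to 252 and the other 5 of 7 not in the table. Endothelial markers summed to 1.74 to 6.20 with 2 of 4 measured. Of 6 fibroblast markers, Lum, Col3a1 and Thy1 were not in the table, and the 3 measured summed to 334 and 374 in high MMP and to 548 and 604 in low MMP cells, nearly all from Pdgfra. The part of these Pdgfra levels in the results was not tested.

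No member passed the limma test between high and low MMP cells. In that test, with Benjamini-Hochberg adjustment over all 20197 genes, 0 of 10 members were called, beside 0 genes in all (0%). At an unadjusted p under 0.05 the count was 1 of 10 members, beside 2011 genes or 9.96%. In 4 of 10 members (Nfkb2, Rela, Tnfaip3 and Birc3) both high MMP values lay above both low MMP values, beside 13.5% of all genes, and in 1 of 10 (Nfkbib) both lay below, beside 24.5%. The groups overlapped in the remaining 5. The median difference was 0.06 over the members and -0.04 over all genes. With 2 samples against 2, the smallest two-sided exact permutation p for a single gene is 0.333.

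**Figure D1:**
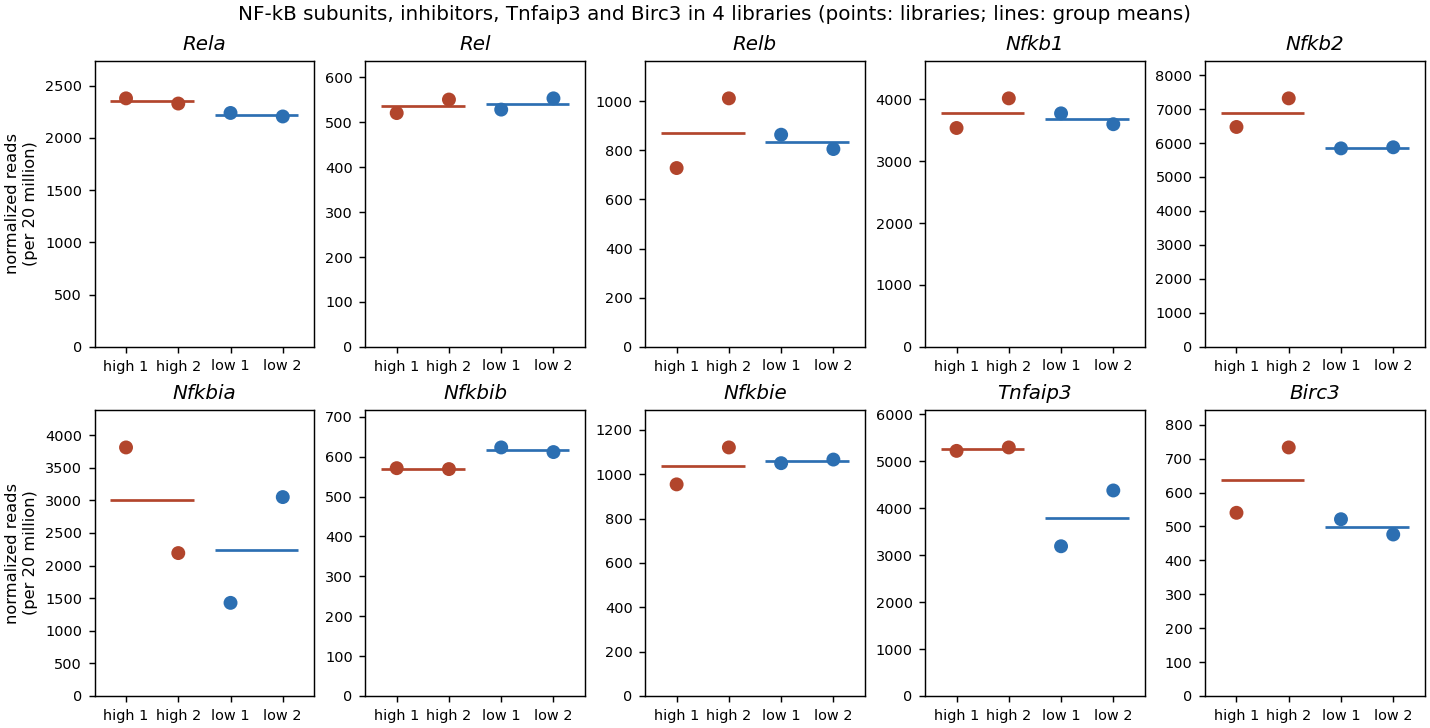
Normalized reads (y axes, linear from 0, each library scaled to 20000000) of the 10 genes in the 2 high MMP (red) and 2 low MMP (blue) libraries, with group means as lines. Tnfaip3 was at 5222 and 5295 in the high MMP libraries and at 3189.8 and 4379 in the low MMP ones, while Nfkbia was highest in high MMP 1 and low MMP 2.

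Of the subunits with a transactivation domain, Rela and Rel had small differences between the groups. Rela, the p65 subunit of the canonical dimer (chr19:5637483-5648130), had 2378 and 2329 normalized reads in high MMP samples 1 and 2 and 2239 and 2205 in low MMP samples 1 and 2. Both high MMP values were above both low ones, but the gap was small, at 2354 ± 35.1 against 2222 ± 23.7 (SD, n = 2 each). The log2 difference was 0.08 (SE 0.07, 95% interval -0.11 to 0.28, limma adjusted p = 0.811). Rel, the c-Rel subunit best known from lymphocytes (chr11:23736847-23770970), had 521 and 551 normalized reads in high MMP and 528 and 553 in low MMP cells. The groups overlapped, and the difference was -0.01 (SE 0.09, 95% interval -0.25 to 0.22, limma adjusted p = 0.994). Its sign turned under 6 other settings of scaling or test and without high MMP 1 or low MMP 2, with values no farther than 0.03 from 0.

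Relb, the partner of p52 in the non-canonical pathway (chr7:19606217-19629438), had 727 and 1011 normalized reads in high MMP and 863 and 805 in low MMP cells. The high MMP samples held both the lowest and the highest value. The difference was 0.04 (SE 0.18, 95% interval -0.45 to 0.54, limma adjusted p = 0.994). It was -0.20 without high MMP 2 and 0.28 without high MMP 1, so the library left out set its sign.

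The remaining 2 subunits are made as precursors that carry an inhibitory part of their own. Nfkb1, which encodes p105 and p50 (chr3:135584655-135691547), had 3534 and 4013 normalized reads in high MMP and 3770.4 and 3595 in low MMP cells. The groups overlapped, with a difference of 0.03 (SE 0.10, 95% interval -0.24 to 0.31, limma adjusted p = 0.973) that was -0.06 without high MMP 2 and 0.12 without high MMP 1. Nfkb2, which encodes p100 and p52 (chr19:46304320-46312385), had 6472 and 7314 normalized reads in high MMP and 5842 and 5874 in low MMP cells. Here both high MMP samples were above both low ones, and high MMP 2 stood highest. Group means were 6893 ± 596 and 5858 ± 22.7 (SD, n = 2 each), with a difference of 0.23 (SE 0.10, 95% interval -0.05 to 0.51, limma adjusted p = 0.583). The value was 0.14 without high MMP 2 and 0.32 without high MMP 1. Exons of Nfkb2 overlap 2 genes on the opposite strand, AC114539.1 (mean 95.1 normalized reads) and Psd (43.3). How the counting used strand is not given in the sources used here. In all, 13.6% of the 75-base words in Nfkb2 transcripts also occur in those genes.

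The 3 classical inhibitors differed from one another. Nfkbia, which encodes IkBα, the inhibitor that is degraded and remade within the NF-kB response (chr12:55489410-55492647), had 3812 and 2192 normalized reads in high MMP and 1428 and 3051 in low MMP cells. The highest and the lowest library were 2.67-fold apart, and the 2 highest, high MMP 1 and low MMP 2, came from different groups. This range was wider than in 99.5% of genes whose mean reached 100. Group means were 3002 ± 1146 and 2239 ± 1147 (SD, n = 2 each), and the difference of 0.47 had an SE of 0.47 and a 95% interval from -0.81 to 1.75 (limma adjusted p = 0.845). The difference was 1.42 between the samples numbered 1 and -0.48 between those numbered 2. It was -0.08 without low MMP 1, 0.07 without high MMP 1, 0.87 without high MMP 2 and 1.02 without low MMP 2. Each group thus held 1 of the 2 highest libraries for this gene.

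Nfkbib, which encodes IkBβ (chr7:28758251-28767512), had 571 and 569 normalized reads in high MMP and 623 and 612 in low MMP cells. It was the one member with both high MMP values below both low ones. The difference was -0.11 (SE 0.08, 95% interval -0.33 to 0.10, limma adjusted p = 0.745), and it lay between -0.13 and -0.10 whichever library was left out. Its exons overlap Ccer2 and Sirt2 on the opposite strand, and 11.6% of its 75-base words also occur in Ccer2, which is not in the table. Nfkbie, which encodes IkBε (chr17:45555703-45563169), had 954 and 1121 normalized reads in high MMP and 1049.6 and 1066 in low MMP cells. The high MMP values enclosed the low ones, and the difference was -0.03 (SE 0.11, 95% interval -0.33 to 0.26, limma adjusted p = 0.976). Its sign turned under 5 other settings of scaling or test, and the value was 0.08 without high MMP 1 and -0.15 without high MMP 2.

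Tnfaip3 encodes A20, a ubiquitin-editing enzyme that ends TNF and Toll-like receptor signals (chr10:19000910-19015657). It had 5222 and 5295 normalized reads in high MMP and 3189.8 and 4379 in low MMP cells. The high MMP samples were nearly equal and both above the low MMP samples, of which sample 1 was lower. Means were 5259 ± 51.8 and 3784 ± 841 (SD, n = 2 each), a ratio of 1.39. The log2 difference was 0.49 (SE 0.18, 95% interval 0.02 to 0.97), with a limma adjusted p = 0.488, so that it was not called. It was the single member with an unadjusted p under 0.05. The difference was 0.71 between the samples numbered 1 and 0.27 between those numbered 2. It was 0.26 without low MMP 1 and 0.72 without low MMP 2, and the levels in low MMP cells thus decided its size but not its sign.

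Birc3 encodes cIAP2, a ubiquitin ligase that joins the TNF receptor complexes and holds the non-canonical kinase NIK down (chr9:7848699-7873186). It had 540.3 and 733 normalized reads in high MMP and 521 and 476 in low MMP cells. Both high MMP samples were above both low ones, by a narrow margin for high MMP 1. The difference was 0.34 (SE 0.18, 95% interval -0.14 to 0.82, limma adjusted p = 0.664). It was 0.12 without high MMP 2 and 0.56 without high MMP 1. Of its 75-base words 3.88% also occur in other genes, among them the neighbouring paralog Birc2, so that a small part of its reads may be uncertain.

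**Figure D2:**
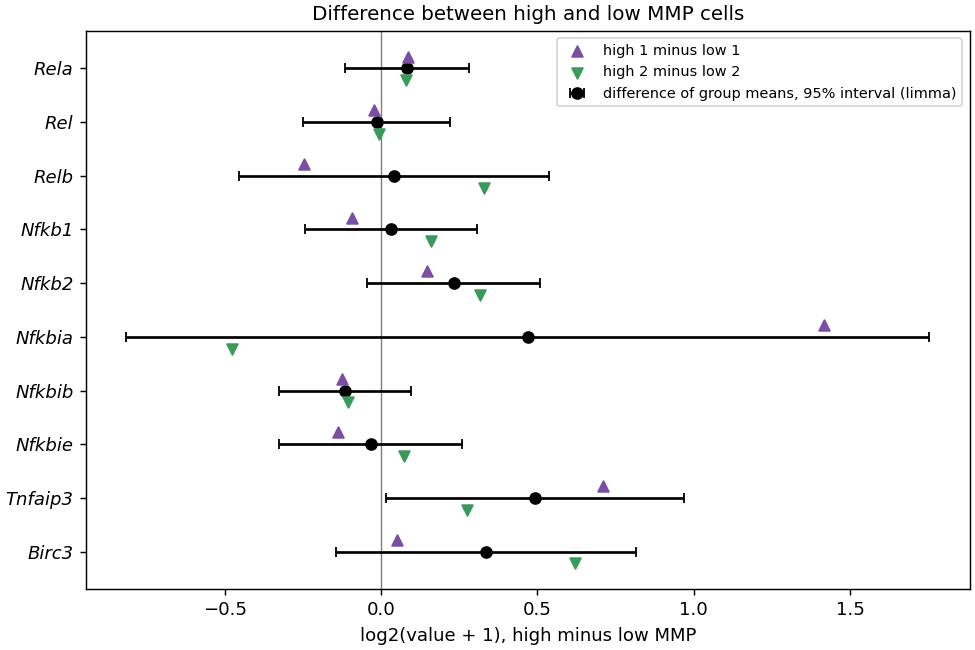
Log2(value + 1) differences, high minus low MMP (x axis), for the 10 genes (y axis): black points and bars give the difference of group means with its 95% limma interval, and triangles the differences between same-numbered samples. The interval of Tnfaip3 (0.02 to 0.97) lies above 0, those of the other 9 genes include 0, and the triangles of Nfkbia lie on opposite sides of 0 at 1.42 and -0.48.

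Per kilobase of annotated exon, the levels could be set in an order. Nfkbia had the highest mean at 1628 normalized reads per kilobase (887 to 2368 over the 4 samples), followed by Nfkb2 at 1391 (1274 to 1596), and their ranges overlapped. Rela at 745 (718 to 774) and Tnfaip3 at 626 (441 to 733) came next and overlapped each other, but not Nfkb2. Nfkbie at 344 (313 to 368) and Nfkb1 at 309 (293 to 333) also overlapped each other. Below them Nfkbib (274), Relb (219), Birc3 (113) and Rel (72.1) followed, and no neighbours among these 4 shared a range. Exon length counts every annotated transcript of a gene, so the level of a gene with a long alternative exon is understated. This length was 12.1 kb for Nfkb1, 7.47 kb for Rel and 7.23 kb for Tnfaip3, against 3.07 kb for Rela. The places of these genes in the order depend on it. Among the subunits Nfkb2 had the highest level per kilobase and Rel the lowest.

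Genes whose profile over the 4 samples was most like that of Tnfaip3 and of Nfkbia were found by Euclidean distance of centred log2(value + 1), among 9998 other genes whose mean reached 100. For Tnfaip3 they were Egr1 (distance 0.08), Myadm (0.09) and Zfpm2 (0.10), and 1216 genes lay within a distance of 0.5. For Nfkbia they were Zfp36 (0.18), Csrnp1 (0.23) and Sgk1 (0.24), and 33 genes lay within 0.5. Zfp36, which encodes an RNA-binding protein that destabilizes inflammatory mRNAs, had 3641 and 1951 normalized reads in high MMP and 1382 and 3239 in low MMP cells. Egr1, a transcription factor of the immediate-early class, had 10354 and 9783 in high MMP and 6032 and 8141 in low MMP cells.

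Immediate-early genes, which are switched on within minutes of a stimulus, had in sum the same order of libraries as Nfkbia: high MMP 1, low MMP 2, high MMP 2 and low MMP 1. The 16 genes of that list summed to 52283 normalized reads in high MMP 1 and 46275 in low MMP 2, against 37149 in high MMP 2 and 27077 in low MMP 1. In 11 of the 16 (68.8%) high MMP 1 and low MMP 2 were the 2 highest libraries, beside 21.0% of all genes and 6 of the 9 epithelial markers measured (66.7%). This pair of libraries is that of Nfkbia, and Zfp36, its nearest profile, is on the list. The list was also chosen with earlier results of these data known, so the count is no test. The median difference of the 16 genes was 0.34, but it was 0.90 between the samples numbered 1 and -0.60 between those numbered 2, -0.31 without low MMP 1 and -0.16 without high MMP 1. The 3 of highest mean were Egr1, Junb and Klf6. Junb had a difference of 0.39 (95% interval -0.17 to 0.95) and Klf6 also of 0.39 (-0.08 to 0.87), neither called. The widest spread was in Fosb (4855 and 601 in high MMP, 389 and 5063 in low MMP), named after its values were seen. The part of this list and of the epithelial markers in the Nfkbia values was not tested.

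**Figure D3:**
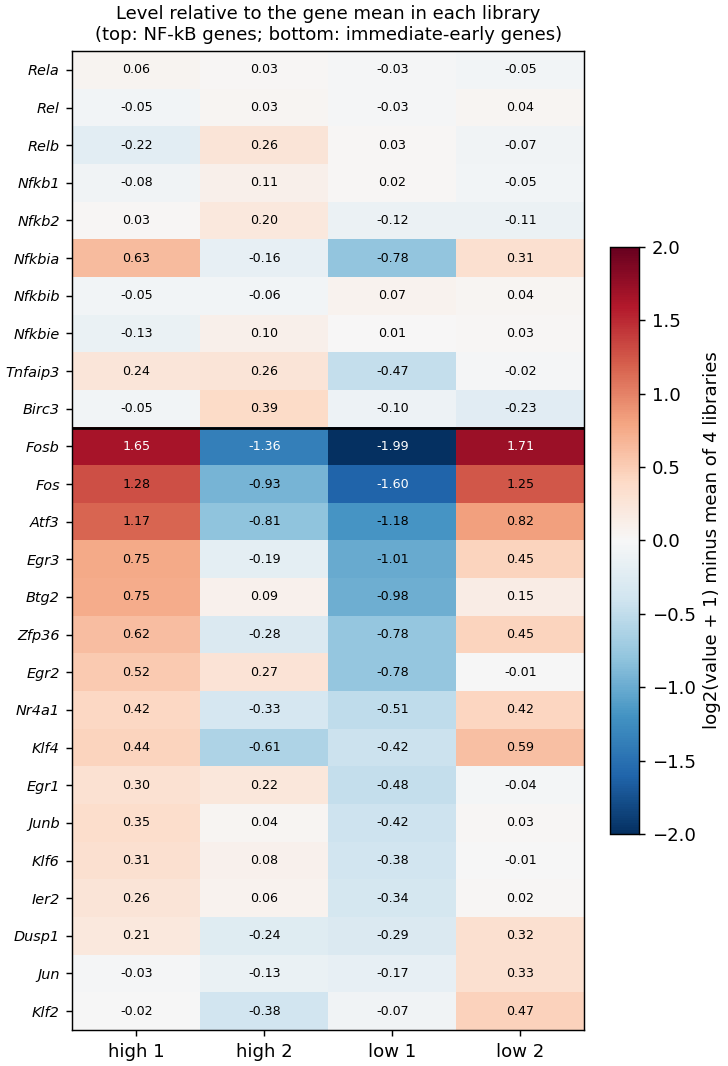
Each cell gives log2(value + 1) of a gene (rows) in a library (columns) minus the mean of the gene over the 4 libraries, printed and colored from blue (low) to red (high). The 10 NF-kB genes are above the line and the 16 immediate-early genes below it, and Nfkbia, like Zfp36, Fos and Fosb, is above its mean in high MMP 1 and low MMP 2 and below it in the other 2 libraries.

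The 10 listed genes of the G2 and M phases of the cell cycle had higher values in both high MMP samples, although limma called 0 of them. The list was chosen with earlier results of these data known, so its counts and median describe these genes and are no test. All 10 had both high MMP values above both low ones, beside 13.5% of all genes, with a median difference of 0.97. Their summed level was 82050 and 85871 normalized reads in high MMP against 41295 and 45288 in low MMP cells. Tnfaip3, Nfkb2, Birc3 and Rela were higher in the same 2 libraries, and the part of cell cycle phase in these differences was not tested. In sorted bulk samples a smaller share of expressing cells and less RNA per cell cannot be told apart.

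The rest of the pathway was described from lists of ligands, receptors, relay proteins, other regulators and target genes. By limma 0 genes of any of these lists had an adjusted p under 0.05. Of 11 ligands 7 were in the table, with a median difference of 0.08 that was -0.11 without high MMP 1 and -0.22 without low MMP 1. Il1a, which encodes interleukin-1α, was the ligand with the highest level, at 6218 and 4368 normalized reads in high MMP and 4140.0 and 4541 in low MMP cells, and its difference was 0.27 (95% interval -0.27 to 0.80). Il18, a ligand of the same cytokine family, had a difference of 0.16 (-0.86 to 1.18). Tnf itself, looked up after its values were seen, was low at 47.7 and 24.3 in high MMP and 26.2 and 39.8 in low MMP cells, again with high MMP 1 and low MMP 2 above the others. One ligand, Ltb, had an unadjusted p under 0.05, at 3.03 and 3.35 against 6.97 and 7.08 normalized reads, a level of few reads that also falls outside the naming rule.

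Of 14 receptors 12 were measured, with a median difference of -0.09 that was 0.05 without high MMP 1. Tnfrsf1b, which encodes TNF receptor 2, had 449 and 462 normalized reads in high MMP and 615 and 609 in low MMP cells. Its groups were far apart against their spread, at 455 ± 9.45 and 612 ± 3.91 (SD, n = 2 each), and the difference was -0.43 (SE 0.08, 95% interval -0.64 to -0.21, limma adjusted p = 0.472). It was the one receptor with an unadjusted p under 0.05. Ltbr, the lymphotoxin β receptor, had a difference of -0.23 (-0.62 to 0.17), Il1r1, the interleukin-1 receptor, of 0.22 (-0.29 to 0.73) and Cd40 of 0.41 (-0.60 to 1.41).

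The 26 relay genes, the kinases, adaptors and ubiquitin ligases between receptor and inhibitor, had a median difference of -0.01. None had an unadjusted p under 0.05. The largest differences in each direction were those of Rbck1 (HOIL-1, a subunit of the linear ubiquitin ligase) at -0.24 (-0.56 to 0.08) and Tbk1 (an IKK-related kinase) at -0.21 (-0.45 to 0.02), and of Ikbkg (NEMO) at 0.13 (-0.10 to 0.36) and Map3k14 (NIK) at 0.13 (-0.10 to 0.35). In 2 of the 26 both high MMP values were above both low ones, beside 13.5% of all genes, and in 7 of the 26 below, beside 24.5%.

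Among the 21 other regulators the median difference was 0.12, and in 7 both high MMP values were above both low ones (13.5% of all genes) and in 3 below (24.5% of all genes). None had an unadjusted p under 0.05. Nfkbiz, which encodes the nuclear protein IkBζ, had 2787 and 2521 normalized reads in high MMP and 1793 and 2408 in low MMP cells. Its lowest library, low MMP 1, was also the lowest for Tnfaip3 and Nfkbia, and its difference was 0.35 (-0.11 to 0.81). Rnf11, a partner of A20, had a difference of 0.30 (-0.04 to 0.64), Tnip2, an A20-binding inhibitor, of -0.24 (-0.55 to 0.07) and Nfkbid, a nuclear IkB protein, of -0.20 (-0.76 to 0.36). A promoter match to the NF-kB consensus was present in 7 of the 15 other regulators with a window (46.7%) and in 4 of the 21 relay genes (19.0%). Over genes with a window and a mean of at least 10 the share was 12.4%.

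**Figure D4:**
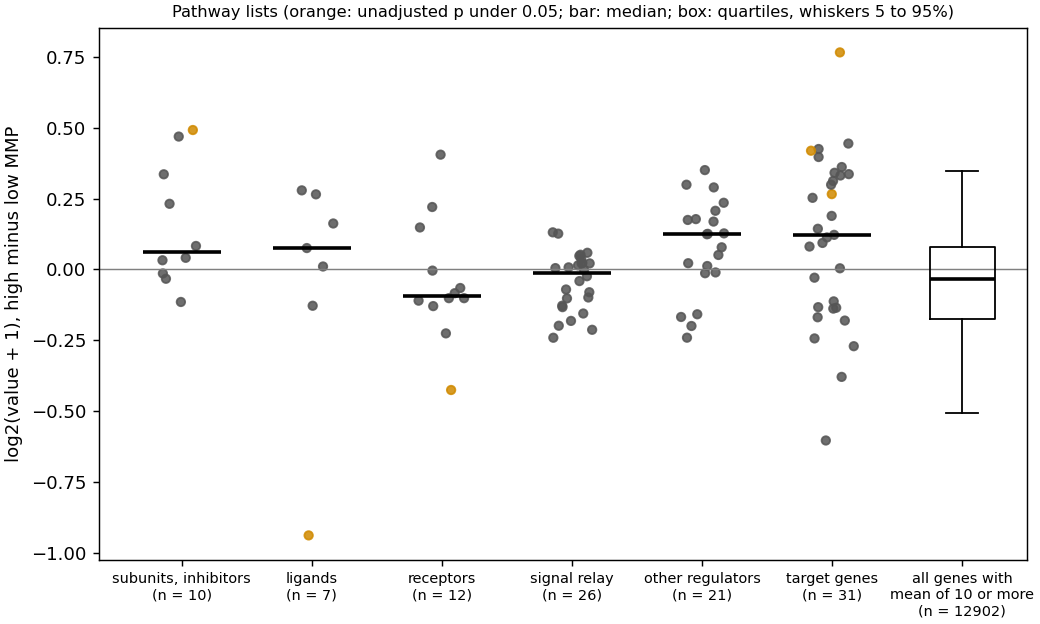
Log2(value + 1) differences, high minus low MMP (y axis), of single genes in the NF-kB lists (x axis), with list medians as bars and, at the right, a box of all genes whose mean reached 10 (whiskers 5 to 95%). List medians lie between -0.09 (receptors) and 0.12 (other regulators and targets), and orange points mark an unadjusted p under 0.05.

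Of 32 target genes 31 were measured, with a median difference of 0.12. In 8 of the 31 both high MMP values were above both low ones (13.5% of all genes) and in 2 below (24.5% of all genes). At an unadjusted p under 0.05 by limma, 3 were higher in high MMP cells (Ptgs2, Il23a and Cflar) and 0 lower. In either direction that is 3 of 31 beside 9.96% of all genes and thus near the background. By direction, 798 of the 20197 genes were higher and 1213 lower. Ptgs2, which encodes cyclooxygenase 2, had 22250.4 and 33732 normalized reads in high MMP and 15384 and 16850.2 in low MMP cells. Both high MMP samples were above both low ones, with a difference of 0.77 (SE 0.24, 95% interval 0.12 to 1.42, limma adjusted p = 0.472). Il23a, a cytokine subunit, had a difference of 0.42 (0.07 to 0.77) and Cflar, which encodes the caspase-8 inhibitor c-FLIP, of 0.27 (0.04 to 0.49), both outside the naming rule. Icam1, an adhesion molecule often used as a readout of NF-kB, had 186 and 285 normalized reads in high MMP and 358 and 342 in low MMP cells. It lay in the opposite direction, at -0.60 (SE 0.23, 95% interval -1.24 to 0.03, limma adjusted p = 0.524). The chemokine gene Ccl7 had a difference of 0.44 (-0.96 to 1.85) and Il6, at 5.30 to 13.4 normalized reads, of -0.38 (-1.76 to 1.00).

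In 14 of the 31 (45.2%) high MMP 1 and low MMP 2 were the 2 highest libraries, as for Nfkbia. The same held for 21.0% of all genes, 66.7% of the epithelial markers and 5 of the 7 ligands (71.4%). The gene lists were chosen with earlier results of these data known, so these counts describe the genes and are no test. Only 4 of the 7 ligands reached a mean of 10 normalized reads. Among the 5, Lta rested on 7 to 14 reads per library and Tnfsf13b on 3 to 6, both outside the naming rule. Tnfsf13b had 6 reads in high MMP 1 and 3 in each other library, so low MMP 2 was second only by library scaling. Csf2, which encodes GM-CSF, had 314 and 67.8 normalized reads in high MMP and 41.8 and 279.7 in low MMP cells, and the neutrophil chemokine gene Cxcl1 had 10422 and 5426 in high MMP and 4589.8 and 8674 in low MMP cells. Both were named after their values were seen. The median of the targets was 0.35 between the samples numbered 1 and -0.08 between those numbered 2. It was -0.09 without low MMP 1 and 0.32 without low MMP 2. Among targets with a promoter window 13 of 23 (56.5%) held a match to the consensus, beside 12.4% of genes with a window and a mean of at least 10. These genes were listed as NF-kB targets, so this share is no test.

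**Figure D5:**
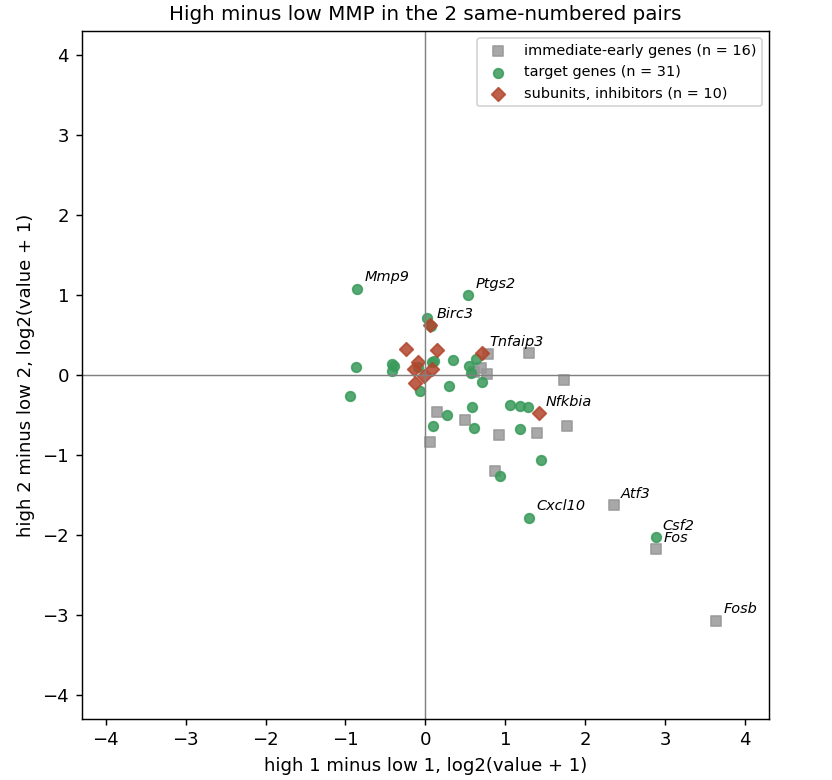
Log2(value + 1) differences, high minus low MMP, between the samples numbered 1 (x axis) and between those numbered 2 (y axis), for the 10 NF-kB genes (red diamonds), 31 targets (green circles) and 16 immediate-early genes (grey squares). Tnfaip3 (0.71, 0.27) is positive on both axes, whereas Nfkbia (1.42, -0.48) lies with Csf2, Fos and Fosb at lower right, positive on the x axis and negative on the y axis.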

How the data were processed

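RNA of sorted 4T1 cells was measured in 4 libraries (high MMP 1 and 2, low MMP 1 and 2), grouped by their titles. The labels name STAR, HTSeq and mm10 (GRCm38); versions, annotation release and strand setting are not given in the sources used here. Per the labels and the file, the authors aligned and counted reads per gene, removed genes found in fewer than 2 samples, and deposited a normalized signal in which each library sums to 20000000. The table held 0 columns of no sample.

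All values were whole multiples of 1 step per library (0.758 to 0.885). Dividing by it gave whole reads for 100% of values (tolerance 0.05), which served for edgeR and DESeq2. Symbols came from GENCODE M21, with 19993 of 20197 identifiers matched. Overlaps and shared 75-base words were counted in its exons and transcripts.

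The log2(value + 1) values were tested with limma 3.58.1 (R 4.3.3; lmFit, eBayes with a trend), with group as the only factor and Benjamini-Hochberg adjustment over all genes at 0.05. Code was tested on simulated data, but the check that known changes were recovered left out limma over all genes, which is the main test. The members, the lists and the rules were chosen with earlier results of these data known. Named were all members; in each pathway list, among genes whose mean reached 10, the top 2 by difference in each direction; the 3 immediate-early genes of highest mean; and the 3 nearest profiles for Nfkbia and for the member of smallest p. Alternatives were other pseudocounts, filters, scalings, a fit with no trend, a replicate block, edgeR 4.0.16 and DESeq2 1.42.0 on recovered reads, and leaving out each sample. Intervals cover 95%.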

Additional observations from a re-analysis of the deposited data

How the results depend on the processing

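Over all alternatives with limma, including other pseudocounts, filters, scalings and each sample left out, 0 genes and 0 members were called. By limma 2011 genes had an unadjusted p under 0.05, and edgeR without a block called 0 genes (1423 at an unadjusted p under 0.05). DESeq2 called 118 genes and 0 members, with 8223 genes given no adjusted p. Whether the replicate numbers mark shared sorts is not given in the sources used here, and they were not treated as pairs: deviations from the group means correlated at -0.42 between same-numbered samples over 12902 genes. With the replicate block limma called 0 genes and 0 members (1055 genes at an unadjusted p under 0.05) and edgeR 106 genes and 0 members. A crossed pairing, chosen after seeing the data, gave 733 calls among 20197 genes (351 higher, 382 lower) in edgeR. Among these calls were 3 members (Nfkbia, Tnfaip3 and Birc3), while limma with this pairing called 0 genes and 0 members. As the pairing followed the data, its calls are no test. The difference of Rel turned positive, at 0.027 with median-of-ratios scaling and DESeq2, 0.029 with quantile normalization and 0.023 in the 3 edgeR fits. That of Nfkbie turned positive at 0.0085 with median-of-ratios scaling, 0.0086 with edgeR, 0.0046 and 0.0048 with its replicate and crossed blocks, and 0.012 with DESeq2. Median-of-ratios scaling used size factors of 0.982 and 0.994 in high MMP and 1.014 and 1.019 in low MMP libraries. Under it the difference of Rela went from 0.083 to 0.124 and that of Nfkb1 from 0.033 to 0.074. The cause in the other settings was not tested. With each sample left out in turn, the difference ran from -0.059 to 0.12 for Nfkb1, -0.20 to 0.28 for Relb, -0.055 to 0.026 for Rel, -0.078 to 1.02 for Nfkbia and -0.15 to 0.083 for Nfkbie. Those of Nfkb2, Rela, Nfkbib, Tnfaip3 and Birc3 kept their direction under these settings. A lone sample in a group was assumed to vary like the other group. The spread of reads between replicates differed, however, with a chi-square per gene of 47.2 in high MMP and 9.83 in low MMP cells. With 2 samples per group, a difference as large as that of Tnfaip3 can miss the adjusted threshold.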
